A study of Sus scrofa with 6 samples.

Results

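Transcripts of 5 genes of interferon defence and class I antigen presentation were followed in pig embryos made by nuclear transfer: IFNAR1, MX1, EIF2AK2, NFKBIA and B2M. Every probe set of the array annotated to one of these symbols was taken, whatever its values, which gave 13 of the 23999 probe sets that are not array controls. They are 5 of the 6765 genes that the array measures with a probe set of a single symbol. B2M had 9 probe sets, lettered here B2M-a to B2M-i from the highest to the lowest mean signal over all arrays, and the other genes had 1 each. The embryos had received an antibody against DJ-1 (2 arrays) or control IgG (2 arrays), or had not been injected (1 array), and the cultured donor cells whose nuclei were transferred gave 1 further array. All embryos shared the same kind of origin: an oocyte from slaughterhouse ovaries, a nucleus from a fibroblast culture established from an adult Meishan pig, and culture for 28 h, to about the 2-cell stage, before 23 to 26 embryos were pooled for each array. Trial 2 repeated the anti-DJ1 and IgG arrays alone, whereas trial 1 had all 4 kinds, and the design text of the study describes the repeats as biologically different samples. The non-injected embryos and the donor cells are single arrays, and any test that involves them borrows its spread from the anti-DJ1 and IgG arrays. Signals are the MAS5 values of the Affymetrix Porcine Genome Array, in linear units, and each probe set is described separately because its signal also depends on its probes.

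Type I interferons bind a receptor at the cell surface, one chain of which is encoded by IFNAR1, and JAK kinases and STAT factors then switch on interferon-stimulated genes. MX1 encodes a GTPase that blocks viral replication and is one of the most widely used markers of that response. EIF2AK2 encodes PKR, a kinase that halts translation by phosphorylating eIF2α when it meets double-stranded RNA. NFKBIA encodes IκBα, which holds NF-κB in the cytoplasm and is itself induced by NF-κB. B2M encodes β2-microglobulin, the light chain of class I antigen molecules, which nearly all nucleated somatic cells carry. The DJ-1 protein is encoded by PARK7, and the antibody binds the protein, so the PARK7 transcript is no check of the injection. Its log2 change between anti-DJ1 and IgG embryos was -0.15 ± 0.14 (SE of the limma fit, adjusted p = 0.941).

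The signals of all arrays had a trimmed mean of 499.8, so every value is relative to the total of its own array. In pooled samples, fewer cells of a type and less RNA per cell cannot be told apart. Across probe sets, the embryo arrays correlated with each other at r = 0.937 to 0.981 and with the donor cell array at 0.256 to 0.329. The labelled cell types were checked on marker lists. The 10 tested oocyte and early embryo markers were all higher in embryos, with summed signals of 87754 to 144174 in embryos against 467 in donor cells. The 17 fibroblast markers on the array summed to 3829 to 4518 in embryos and 100302 in donor cells. The donor cell sum was led by the filament protein VIM and the matrix protein FN1. The fibroblast matrix genes DCN, LUM and POSTN did not exceed the array's negative (Tag) controls in donor cells. Donor cells exceeded every embryo array in 12 of the 17 and lay below every one in 3. Of the 14 tested, 12 were lower in embryos and 2 higher, beside 41.0% and 36.0% of all tested probe sets. The keratins KRT8 and KRT18, typical of epithelia, had signals of 9907 and 2103 in donor cells. Of 19 leukocyte markers 8 lay at or under the Tag controls on all embryo arrays and 13 in donor cells, and their sum was 283 to 714 in embryos against 761 in donor cells. The 17 cumulus and granulosa markers summed to 1908 to 2499 in embryos and 15262 in donor cells. KRT8 and KRT18 are among these 17 and made up most of the donor cell sum. In donor cells 9 of the 17 were at or under the Tag controls, and the defining markers FSHR and AMH were so on every array. The 3′ probe set of the EF1A control exceeded its 5′ probe set, a measure of shortened RNA, 24.2-fold in trial 1 and 8.20-fold in trial 2 of the anti-DJ1 embryos, 23.9-fold and 9.34-fold in those of the IgG embryos, 30.0-fold for the non-injected embryos and 4.23-fold for the donor cells. The actin control gave 265-fold and 45.0-fold, 258-fold and 68.4-fold, 665-fold and 141-fold in the same order, and the GAPDH control 17.6-fold and 6.65-fold, 7.46-fold and 16.1-fold, 8.49-fold and 21.1-fold. Donor cells thus had the lowest of the 6 values by EF1A and the highest by GAPDH. The part of these ratios in the differences given here was not tested.

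All 78 values of the 13 probe sets lay above the highest Tag control of their own array, which ranged from 21.4 to 47.0. The donor cell array lay outside the embryo range for 10 of the 13 and inside it for IFNAR1, B2M-g and B2M-h. Among all tested probe sets it lay above every embryo array in 43.1% and below every one in 39.7%, so most of them lay outside too. In embryos MX1 was higher and NFKBIA lower than in donor cells. Of the 9 B2M probe sets 5 were lower in embryos, 2 of them by a log2 change below -6, while 2 were higher and 2 did not pass. Over all arrays the receptor gene IFNAR1 ran from 402 to 796 and the kinase gene EIF2AK2 from 552 to 1285.

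**Figure D1:**
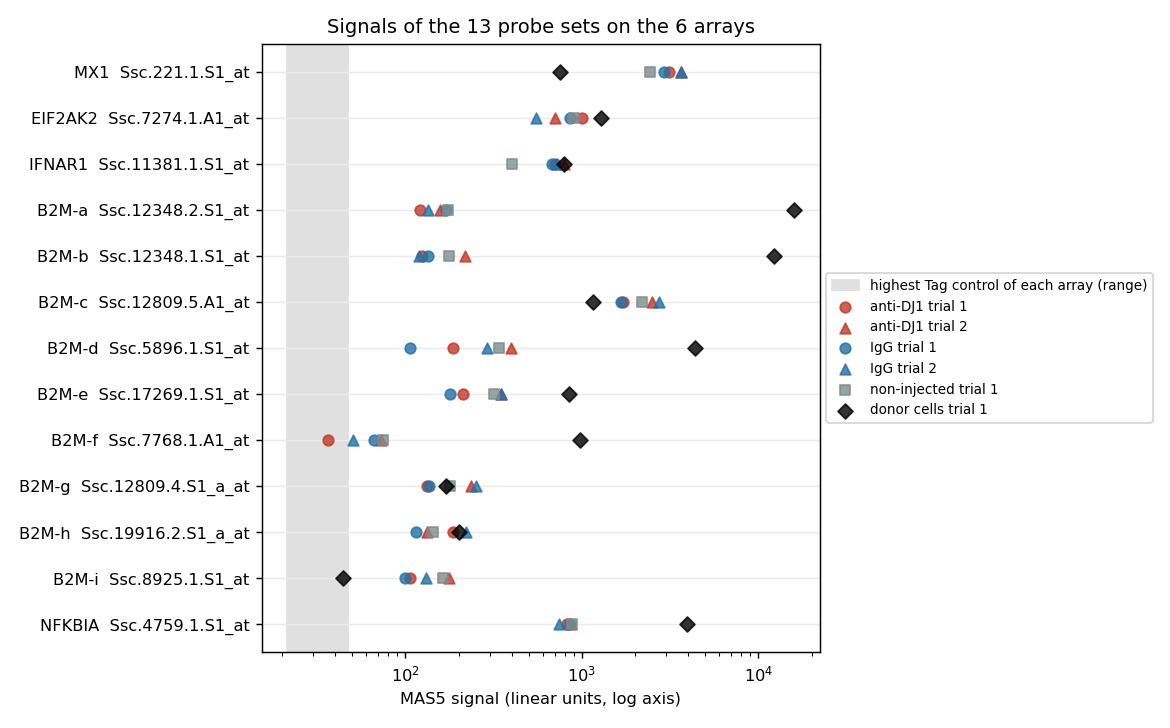
MAS5 signal (linear units on a log axis) of each of the 13 probe sets, 1 row per probe set and 1 point per array, with anti-DJ1, IgG and non-injected embryos and donor cells told apart by colour and trials by shape. The grey band spans the highest Tag control of the 6 arrays, 21.4 to 47.0. Row names give the label used here and the array's probe set name. The donor cell diamond stands far to the right of the embryo points for B2M-a, B2M-b, B2M-d and B2M-f and for NFKBIA, and to the left of them for MX1.

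MX1, the antiviral GTPase, had signals of 3128 and 3663 in anti-DJ1 embryos of trials 1 and 2, 2918 and 3641 in IgG embryos, 2438 in non-injected embryos, against 751 in donor cells. All 5 embryo arrays lay above the donor cell array, the lowest of them 3.24-fold above it. The log2 change of embryos from donor cells was 1.90 ± 0.13 (limma, adjusted p = 2.79e-07), a 3.73-fold difference. By mean level, anti-DJ1 embryos came first, then IgG embryos, non-injected embryos and donor cells, and no difference between neighbouring embryo groups passed the test. MX1 stayed higher in embryos, at 1.69 to 2.53, under the 10 other settings tried with all replicates. A second member of the family, MX2, was too dim to be tested, with 29.6 to 57.9 in embryos and 34.2 in donor cells.

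EIF2AK2, the gene of PKR, had signals of 999 and 703 in anti-DJ1 embryos, 851 and 552 in IgG embryos, 904 in non-injected embryos, against 1285 in donor cells. The donor cell array was the highest of the 6, followed by the group means of non-injected, anti-DJ1 and IgG embryos, which overlapped, and the trial 2 embryos were the lowest. Its log2 change of embryos from donor cells was -0.49 ± 0.17 (limma, adjusted p = 0.0197). That call depends on the scaling between such unlike samples: with each array scaled to a common 75th percentile the value was 0.15 (adjusted p = 0.436), and with quantile normalization -0.29 (adjusted p = 0.125). It was also lost without the trial as a block (adjusted p = 0.190) and without the mean-variance trend (adjusted p = 0.1001).

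IFNAR1, the receptor chain, had signals of 706 and 796 in anti-DJ1 embryos, 677 and 720.3 in IgG embryos, 402 in non-injected embryos, against 789 in donor cells. Only the non-injected array stood apart, below the 4 injected embryo arrays and the donor cells, which overlapped. The log2 change of embryos from donor cells was -0.45 ± 0.18 (limma, adjusted p = 0.0372), but it was -0.19 (adjusted p = 0.362) when the non-injected array was left out and -0.96 when that array alone stood for the embryos. It was 0.18 at a common 75th percentile (adjusted p = 0.358) and -0.08 with quantile normalization (adjusted p = 0.673), and the call was also lost without the block (adjusted p = 0.296) or the trend (adjusted p = 0.116).

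NFKBIA, the gene of IκBα, had signals of 825 and 867 in anti-DJ1 embryos, 860.2 and 742 in IgG embryos, 876 in non-injected embryos, against 3964 in donor cells. The 5 embryo arrays lay close together, within a span of 742 to 876. They stood 4.63-fold below donor cells, a log2 change of -2.21 ± 0.16 with an adjusted p = 4.12e-07 by limma, and no difference between embryo groups passed.

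The comparisons with donor cells depended on the scaling. The median log2 change of the 14399 tested probe sets was -0.14 as deposited, 0.28 with quantile normalization and 0.47 at a common 75th percentile, and 46.8%, 55.4% and 58.8% of the calls were higher in embryos under these 3 scalings. Relative to that median, MX1 stood at 2.04, 1.85 and 2.06, NFKBIA at -2.07, -2.60 and -2.05, EIF2AK2 at -0.35, -0.57 and -0.32, and IFNAR1 at -0.31, -0.36 and -0.29 on the log2 scale. Of all tested probe sets 77.1% passed between embryos and donor cells (36.0% higher, 41.0% lower), against 11 of the 13 described here, a share close to that background.

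The 9 probe sets annotated to B2M did not give 1 answer. In embryos 5 were lower than in donor cells, 2 were higher and 2 did not pass. The pair with the highest donor signals, B2M-a and B2M-b, moved alike. B2M-a had signals of 121 and 157 in anti-DJ1 embryos, 170.1 and 134 in IgG embryos, 174 in non-injected embryos, against 15950.5 in donor cells. B2M-b had 125 and 218 in anti-DJ1 embryos, 134 and 119.5 in IgG embryos, 177 in non-injected embryos, against 12307.5 in donor cells. All embryo arrays lay far below the donor cells on both probe sets. Their log2 changes were -6.66 ± 0.25 (limma, adjusted p = 2.34e-09) and -6.38 ± 0.28 (adjusted p = 6.99e-09), or 101-fold and 83.1-fold lower in embryos.

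The B2M probe sets d, e and f were lower in embryos by smaller steps. B2M-d had 187 and 394 in anti-DJ1 embryos, 107 and 291 in IgG embryos, 341 in non-injected embryos, against 4352 in donor cells, a log2 change of -4.49 ± 0.22 (limma, adjusted p = 1.38e-08). B2M-f had 36.5 and 72.9 in anti-DJ1 embryos, 66.5 and 50.4 in IgG embryos, 74.2 in non-injected embryos, against 981 in donor cells, a log2 change of -4.01 ± 0.44 (adjusted p = 1.10e-05). Its anti-DJ1 value of trial 1 lay just above that array's highest Tag control of 33.3. B2M-e had 212 and 348 in anti-DJ1 embryos, 179 and 347 in IgG embryos, 318 in non-injected embryos, against 849 in donor cells, a log2 change of -1.87 ± 0.22 (adjusted p = 1.97e-05). In each of the 3 the donor cells exceeded every embryo array.

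Other B2M probe sets went the opposite way or did not pass. B2M-c had 1712 and 2481 in anti-DJ1 embryos, 1662 and 2743 in IgG embryos, 2192 in non-injected embryos, against 1162 in donor cells, a log2 change of 0.66 ± 0.14 (limma, adjusted p = 0.00146). All embryo arrays lay above the donor cells, although the call was lost without the trial as a block (adjusted p = 0.113) and without the mean-variance trend (adjusted p = 0.0544). B2M-i had 106 and 176 in anti-DJ1 embryos, 99.3 and 131 in IgG embryos, 164 in non-injected embryos, against 44.6 in donor cells, a log2 change of 1.34 ± 0.35 (adjusted p = 0.00523). Its donor cell value lay just above that array's highest Tag control of 34.3, and the call was lost without anti-DJ1 replicate 2 and the block (adjusted p = 0.0636). B2M-g, with 133 to 249.7 in embryos and 169 in donor cells, stood at -0.18 (adjusted p = 0.567), and B2M-h, with 115 to 221 in embryos and 201 in donor cells, at -0.45 (adjusted p = 0.304). Among all tested probe sets the donor cell array exceeded every embryo array in 43.1% and lay below every one in 39.7%, against 5 and 2 of these 9.

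The distance between 2 patterns was taken as the root mean square difference of mean-centred log2 values over the 6 arrays. Over the 36 pairs of B2M probe sets it ran from 0.28, between B2M-a and B2M-b, to 3.06, with a median of 1.32. The platform annotation used here dates from 2016, and the RefSeq gene table for Sscrofa11.1 lists B2M under 2 gene entries on 1 chromosome, of which the array annotation names 1. Probe sequences were not used here, and which of the 9 probe sets detect B2M transcripts was not tested.

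**Figure D2:**
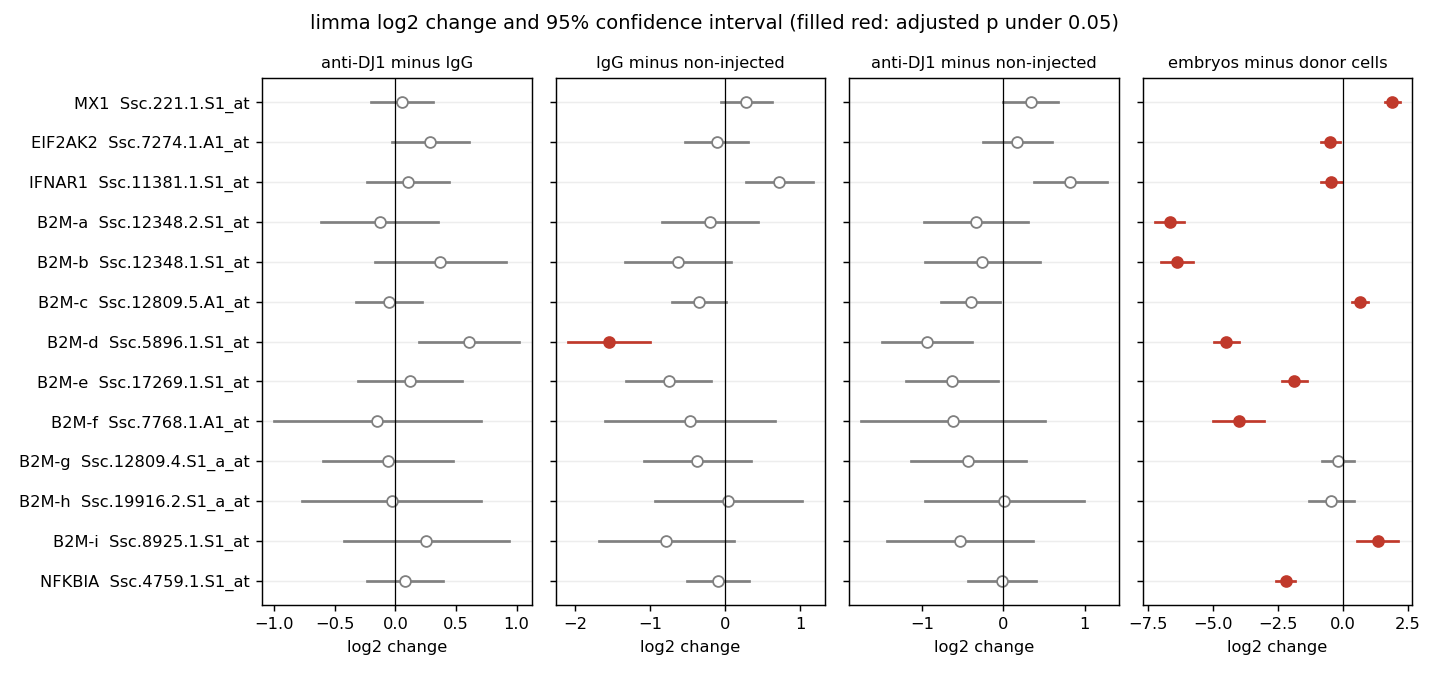
Log2 change of each probe set (limma) in the 4 comparisons, 1 panel each, with 95% confidence intervals on the x axes, whose ranges differ between panels. Filled red points have an adjusted p under 0.05. No point is filled for anti-DJ1 minus IgG or anti-DJ1 minus non-injected, 1 is filled for IgG minus non-injected (B2M-d, -1.55), and 11 are filled for embryos minus donor cells.

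Anti-DJ1 embryos are set against IgG embryos of the same trial to see what the antibody does to transcripts. No interferon or class I probe set passed. The log2 changes of the 13 ran from -0.15 to 0.61 with a median of 0.08, beside a median of -0.01 over all tested probe sets, and adjusted p ran from 0.879 to 0.994 (limma). Of all 14399 tested probe sets 0, or 0%, passed, while 812 had an unadjusted p under 0.05. The 2 trials showed anti-DJ1 above IgG in both for 6 of the 13, below in both for 1, and on opposite sides for 6, of which 5 were B2M. Over all tested probe sets these shares were 24.5%, 26.8% and 48.7%.

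MX1 differed by 0.10 in trial 1 and 0.01 in trial 2, for a log2 change of 0.05 ± 0.12, with a 95% interval of -0.20 to 0.31. EIF2AK2 stood at 0.29 ± 0.14, with an interval of -0.03 to 0.61 and trial values of 0.23 and 0.35 (adjusted p = 0.904 by limma). IFNAR1 stood at 0.10 ± 0.15, with an interval of -0.24 to 0.44, and NFKBIA at 0.08 ± 0.14, with -0.06 and 0.22 in the trials and an interval of -0.23 to 0.39. These intervals are built in part from the gap between the 2 trials, so they are no separate check of how well the trials agree. The 2 B2M probe sets with the highest donor signals differed in sign, with B2M-a at -0.13 ± 0.22 (-0.48 and 0.22 by trial) and B2M-b at 0.37 ± 0.24 (-0.10 and 0.84 by trial). The widest of the 13 changes was that of B2M-d at 0.61 ± 0.19, for which limma gave an adjusted p = 0.879, and trials 1 and 2 gave 0.78 and 0.43. Its values of 187 and 394 in anti-DJ1 embryos and 107 and 291 in IgG embryos overlap, and the trial 2 arrays were the higher ones in both groups.

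**Figure D3:**
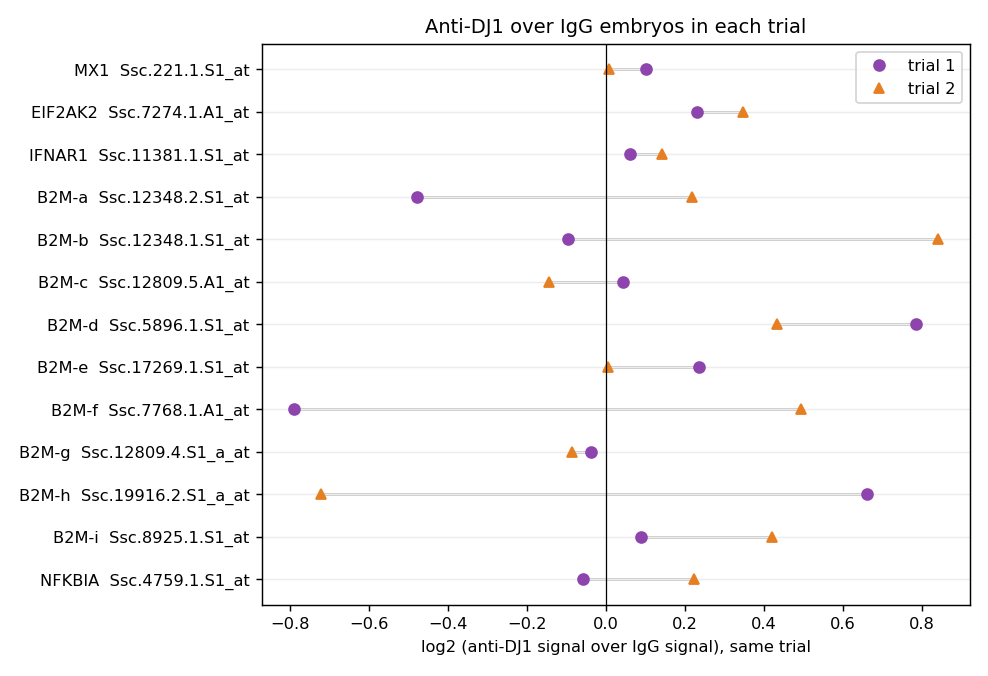
Log2 ratio of the anti-DJ1 signal over the IgG signal of the same trial (x axis) for each of the 13 probe sets, with circles for trial 1 and triangles for trial 2 and a line at no difference. For 6 probe sets the 2 trials lie on opposite sides of the line, and the widest gaps between trials are those of B2M probe sets.

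Trials differed more than the injected groups did for several of these probe sets. EIF2AK2 was lower in trial 2 than in trial 1 by a log2 difference of -0.50 (anti-DJ1 embryos) and -0.62 (IgG embryos), whereas the median of all tested probe sets was 0.13 for either group. MX1 was higher in trial 2 by 0.23 in anti-DJ1 and 0.32 in IgG embryos. B2M was higher in trial 2 for 8 of 9 probe sets in anti-DJ1 and 6 of 9 in IgG embryos, with 5 higher in trial 2 in both groups. The median of 0.13 over all tested probe sets is also positive. The share of them higher in trial 2 was not counted. The EF1A and actin ratios given above were lower in trial 2 than in trial 1 in both groups, whereas the GAPDH ratio was lower in trial 2 in anti-DJ1 embryos and higher in IgG embryos, and their part in these differences was not tested. The trial is a block in every test given here unless said otherwise.

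The injected embryos were also set against the single non-injected array, a comparison that addresses the injection itself. Both comparisons use that array, so they are not independent. Of the 13 probe sets, 1 passed for IgG minus non-injected, against 0.472% of all tested probe sets (0.396% higher, 0.0764% lower), and 0 passed for anti-DJ1 minus non-injected, against 1.03% (0.729% higher, 0.306% lower). The 1 call was B2M-d, at -1.55 ± 0.25 in IgG embryos (limma, adjusted p = 0.0315) and -0.94 ± 0.25 in anti-DJ1 embryos (adjusted p = 0.0900). Its signal was 107 and 291 in IgG embryos against 341 in non-injected embryos. Within trial 1 alone the log2 change was -1.64. The call was lost without the trial as a block (-0.93, adjusted p = 0.992) and without the mean-variance trend (adjusted p = 0.314), and without the block and the trial 1 IgG array the value was -0.23. The anti-DJ1 change passed when only the upper 40% of probe sets were tested (adjusted p = 0.00840).

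For the other B2M probe sets the same comparison gave -0.78 to 0.04 in IgG embryos, with none passing. Over all 9, 8 changes were negative against the non-injected array in IgG and 8 in anti-DJ1 embryos, with medians of -0.47 and -0.43. Over all tested probe sets the medians were -0.0043 and -0.0068, and 49.6% and 49.5% of the changes were positive. The 9 are annotated to 1 gene and share the single non-injected array, so they are not independent. IFNAR1 stood at 0.72 ± 0.20 in IgG embryos (limma, adjusted p = 0.117) and 0.82 ± 0.20 in anti-DJ1 embryos (adjusted p = 0.0799). All 4 injected arrays, at 677 to 796, lay above the 402 of the non-injected array, and both changes passed when only the upper 40% of probe sets by mean were tested (adjusted p = 0.0207 and 0.00527). MX1 stood at 0.28 and 0.34, EIF2AK2 at -0.12 and 0.17, and NFKBIA at -0.10 and -0.01, in IgG and anti-DJ1 embryos, none of which passed.

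IFNAR2, which encodes the partner chain of the same receptor, was higher in injected than in non-injected embryos. It had signals of 98.6 and 117.7 in anti-DJ1 embryos, 96.4 and 140.2 in IgG embryos, 5.70 in non-injected embryos, against 409 in donor cells. The non-injected value lay under that array's highest Tag control of 47.0, so the fold is a bound against that level. The mean of both trials was at least 2.47-fold higher in IgG embryos (limma, adjusted p = 0.0131). It was at least 2.29-fold higher in anti-DJ1 embryos (adjusted p = 0.0157). These bounds have no trial term, unlike the tests, and the trial 1 signals alone stood closer to the Tag level. The adjusted p values belong to the fitted log2 changes of 3.36 and 3.26, which use the non-injected signal as read. They do not test the bounds. In the NF-κB list only the adhesion molecule VCAM1 did the same, at least 2.31-fold higher in IgG embryos (adjusted p = 0.0180) and at least 2.05-fold in anti-DJ1 embryos (adjusted p = 0.0238) than a non-injected signal of 15.0, also under the Tag controls. Its bounds and adjusted p values were taken in the same way. Without the trial as a block, or without the mean-variance trend, 0 of all tested probe sets passed in either comparison, so these calls were lost too. With each gene represented by its probe set with the highest mean signal, the other 72 tested genes of the 5 pathway lists did not pass. The members with the smallest p in each list were the interferon-induced IFI35 at -2.91 in IgG and -3.73 in anti-DJ1 embryos (adjusted p = 0.102 and 0.0516), the peptide transporter TAP1 at -2.52 in IgG embryos (adjusted p = 0.1001), the adaptor MYD88 at 0.96 in IgG embryos (adjusted p = 0.376), the chaperone CANX at 0.61 in anti-DJ1 embryos (adjusted p = 0.0966) and the RNA sensor DDX58 at 0.42 in anti-DJ1 embryos (adjusted p = 0.269).

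The wider pathways were described with 5 gene lists, each gene represented by its probe set with the highest mean signal. Between anti-DJ1 and IgG embryos 0 of their 74 tested members passed, with median log2 changes of 0.04 for interferon-stimulated genes, 0.01 for receptors and JAK-STAT signalling, -0.08 for RNA sensing and PKR partners, 0.21 for class I antigen presentation and 0.15 for NF-κB, beside -0.01 over all tested probe sets. The members with the smallest p were the proteasome activator PSME1 at 1.77 ± 0.49, the ISG15-removing protease USP18 at 1.54 ± 0.64, IRF2 at 1.20 ± 0.69, the death receptor TNFRSF1A at -0.63 ± 0.21 and the PKR substrate EIF2S1 at -0.30 ± 0.20 (limma, adjusted p = 0.879 to 0.921).

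Against donor cells more tested genes were lower than higher in embryos in each of the 5 lists as deposited. Over all tested probe sets 36.0% were called higher and 41.0% lower. A list's tested members passed a filter on the mean over all 6 arrays, which a gene high in donor cells alone can pass. The number of genes whose donor signal exceeded every embryo array is therefore given over all genes of a list on the array, tested or not, beside 39.4% of all 23999 probe sets. That share is not a like background. Each gene's probe set was chosen by its mean over the same 6 arrays, which can favour one high in donor cells alone, as B2M-a for B2M. The 39.4% has no such choice and includes probe sets without a gene symbol. Of interferon-stimulated and antiviral genes, 22 were on the array and 12 were tested, with 2 higher and 9 lower in embryos and a median log2 change of -2.25. Donor cells exceeded every embryo array in 16 of the 22. MX1 and PML, a nuclear body protein, were the 2 that were higher in embryos, PML by at least 1.82-fold (limma, adjusted p = 0.0176). The lower ones were led by the scramblase PLSCR1, at least 16.7-fold higher in donor cells, IFI44L at -5.17 ± 0.49 and the lysosomal reductase IFI30 at -4.62 ± 0.66. On all embryo arrays 8 of the 22 lay at or under the Tag controls, among them the widely used interferon response markers OAS1, ISG15 and RSAD2. In donor cells 6 of the 22 did. How many of all probe sets did was not counted, so these counts have no background. ISG15 had a signal of 157 in donor cells. At a common 75th percentile 3 of the lower calls, EIF2AK2, IFIT2 and SAMHD1, changed sign and were not called.

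**Figure D4:**
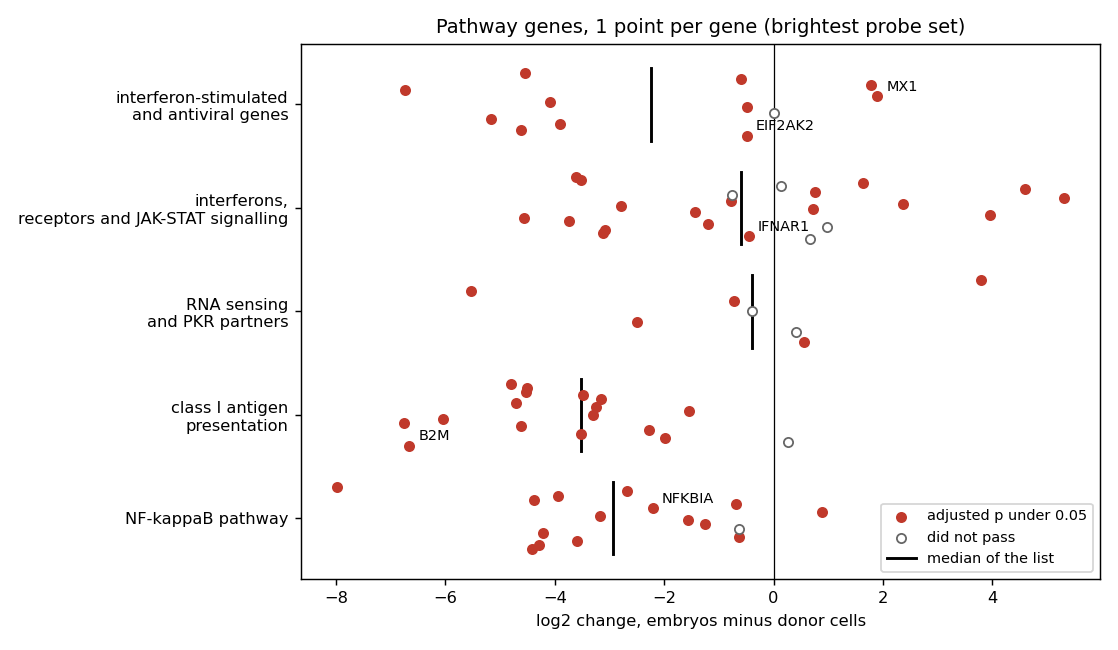
Log2 change of embryos minus donor cells (x axis) for each tested gene of the 5 pathway lists, 1 point per gene, red where the adjusted p is under 0.05 and open where it is not, with a black bar at each list's median. MX1 stands to the right of 0 in a list whose median is -2.25, while B2M and NFKBIA stand on the side of most genes of their lists.

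Among 22 tested interferon, receptor and JAK-STAT genes, the balance of calls depended on the scaling. As deposited 7 were higher and 11 lower in embryos, with a median of -0.60. With quantile normalization 9 were higher and 7 lower, with a median of -0.05, and at a common 75th percentile 10 were higher and 7 lower, with a median of 0.02. Donor cells exceeded every embryo array in 14 of the 27 genes on the array. Higher in embryos were SOCS1, the feedback inhibitor of JAK kinases, by at least 22.8-fold (other probe sets 2.98 and 1.49 on the log2 scale), STAT4 by at least 26.4-fold and IRF8 by at least 10.6-fold, each at or under the Tag controls in donor cells. The STAT4 bound, over the embryo arrays of both trials, exceeded its fitted 24.1-fold, which includes the trial term and the pseudocount. Lower were the interferon regulatory factors IRF3 at -4.56 ± 0.63 and IRF2 at -3.75 ± 0.80 and the receptor kinase TYK2 at -3.62 ± 0.33 (limma, adjusted p = 6.09e-05, 0.00137 and 2.11e-06). IFNAR2 was also lower in embryos, at -3.12 ± 0.39. That value takes in the non-injected signal, which lay under the Tag controls, so its size is not a firm fold. Every injected array also lay below the donor cells, by a smaller step. Of interferon genes, IFNB1 was under the Tag controls on all arrays, and IFNA1, at 131 to 209 in embryos and 98.4 in donor cells, did not pass (adjusted p = 0.0887).

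Among 7 tested RNA sensing and PKR genes, 2 were higher and 3 lower as deposited, with a median of -0.39. Under both other scalings 3 were higher and 2 lower, with medians of 0.14 with quantile normalization and 0.20 at a common 75th percentile. Donor cells exceeded every embryo array in 4 of the 12 genes on the array. The endosomal RNA receptor TLR8 was at least 3.85-fold higher in embryos, and DDX58, which encodes RIG-I, was higher by 0.57 ± 0.16 (limma, adjusted p = 0.00851; second probe set 0.80). TBK1, the kinase that activates IRF3, was lower at -5.54 ± 0.37, and the PKR substrate EIF2S1 at -2.50 ± 0.23. PRKRA, the protein activator of PKR, was lower at -0.72 ± 0.24, a call lost with both other scalings.

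Class I antigen presentation was lower in embryos for 16 of 17 tested genes and higher for 0, with a median of -3.53. Donor cells exceeded every embryo array in 18 of the 19 genes on the array. The immunoproteasome subunit PSMB8 was at least 22.1-fold higher in donor cells, the proteasome activator PSME1 stood at -6.05 ± 0.57 and the loading chaperone TAPBP was at least 13.6-fold higher in donor cells. The class I heavy chain genes SLA-2, SLA-3, SLA-6 and SLA-8 stood at -4.70, -3.16, -3.49 and -4.53. Only the chaperone CALR did not pass, at 0.27 (limma, adjusted p = 0.283). Under each of the other scalings 1 gene was higher, and 15 were lower with quantile normalization and 16 at a common 75th percentile. Of these genes 4 were at or under the Tag controls on all embryo arrays and 0 in donor cells. The matching shares of all probe sets were not counted.

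NF-κB genes were lower in 14 of 16 tested and higher in 1 as deposited, with a median of -2.93, and lower in 11 under either other scaling. Donor cells exceeded every embryo array in 16 of the 23 genes on the array. VCAM1 stood at -7.98 ± 0.30, the chemokine CCL2 at -4.42 ± 0.85 and the mitochondrial dismutase SOD2 at -4.39 ± 0.25 (limma, adjusted p = 2.48e-09, 0.000723 and 4.99e-08). MAP3K7, the kinase TAK1, was higher at 0.89 ± 0.19, but its second probe set was at -0.08. Summed signals of fibroblast markers moved with the class I and NF-κB lists, at 3829 to 4518 in embryos against 100302 in donor cells, and their part in these differences was not tested.

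The genes whose pattern over the 6 arrays was most like each member's were taken from 6818 tested probe sets with 1 symbol. For MX1 these were HACD3 at a distance of 0.07, RRS1 at 0.07 and IHH at 0.08. HACD3, for instance, had 2991 and 3541 in anti-DJ1 embryos, 2986 and 3967 in IgG embryos, 2372 in non-injected embryos, against 718 in donor cells. For EIF2AK2 they were TSPAN2 at 0.07, MAGT1 at 0.09 and NDFIP2 at 0.10. For IFNAR1 they were the proteasome subunit PSMB1 at 0.08, SERPINA6 at 0.08 and DDX25 at 0.09. These shared the low non-injected value of IFNAR1, which the choice by distance over the same arrays brings with it. For NFKBIA they were IMPACT at 0.06, RAN at 0.08 and OSTC at 0.08. For B2M, by B2M-a, they were the caveolin gene CAV1 at 0.13, SLC25A3 at 0.16 and the fibronectin gene FN1 at 0.21. All of these patterns share the same 6 arrays and the contrast of embryos with donor cells.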

How the data were processed

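Total RNA (50 ng per sample) was labelled by a 2-cycle method and hybridised to the Affymetrix Porcine Genome Array, per the labels' protocols. The authors deposited 1 linear intensity per probe set and array, made with MAS5 per the submitters' processing notes. Its version, scaling target and detection calls were not given in the sources used here. In all, the table held 24123 probe sets, 124 of them controls that were left out. Of the other 23999, 10069 had 1 gene symbol in the platform annotation, 198 several and 13732 none. Genes were taken by single symbol. Every value column was matched to a sample.

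The deposited intensities were put on a log2 scale after adding 4.60, the 10th percentile over all probe sets and arrays. Changes given here are on that scale and are too small for dim probe sets. The 14399 probe sets in the upper 60% by mean signal (above 54.4) were tested with limma 3.58.1 in R 4.3.3 (lmFit, eBayes with a mean-variance trend) fitted to the 6 arrays together. Group and trial were terms, tests were two-sided, and p-values were adjusted over all 14399 by Benjamini-Hochberg at 0.05. Moderation contributed 9.18 degrees of freedom beside the 1 left by the arrays. Embryos minus donor cells is the mean of the 3 embryo group effects, which with the trial term equals the trial 1 embryo arrays against the donor array. The design text pairs each anti-DJ1 array with the IgG array of its trial, so the trial was a block. Deviations from group means correlated at r = 0.559 between same-trial arrays, across probe sets. The test was tried on simulated data. The number of arrays limits the precision: the median 95% interval reached 1.43-fold either side for anti-DJ1 against IgG and 1.61-fold against non-injected embryos.

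A signal at or under the array's highest Tag control was taken as not above background. The share of all probe sets at or under that level was not counted, so counts of such genes stand without it. Bounds ("at least") set the brighter group's mean log2 signal against that level. They take in the arrays of both trials with no trial term and no pseudocount, unlike the tested changes, and can exceed the fitted fold. An adjusted p beside a bound is that of the fitted change and does not test the bound. The rule named all member probe sets, PARK7, up to 3 genes in each direction per list and comparison by size of change (or, where none passed, the one with the smallest p), and the 3 nearest patterns; genes beyond it were chosen after their values were seen. The members and gene lists were chosen with earlier results of these data known. Alternatives were other scalings, pseudocounts, filters, terms and sets of arrays.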

Additional observations from a re-analysis of the deposited data

How the results depend on the processing

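Counts of calls against the single non-injected array depended strongly on the settings. For IgG embryos 68 probe sets were called, against 163 at a common 75th percentile, 236 with the pseudocount at the 25th percentile, 800 with the upper 40% tested and 182 with embryo arrays only. For anti-DJ1 embryos 149 were called, against 253, 355, 945 and 266 under the same settings and 71 with no filter on low values. Without the trial as a replicate block, or without the mean-variance trend, both counts were 0, and leaving out any 1 anti-DJ1 or IgG array, again with no replicate block, gave 0 in every case. For anti-DJ1 minus IgG the count was 1 with the pseudocount at the 25th percentile, 58 with the upper 40% tested and 0 otherwise, including without the block. Among the 13 probe sets, IgG minus non-injected gave 2 calls with the upper 40% tested and 0 without the block, without the trend and in each unblocked fit that lacked 1 array, and anti-DJ1 minus non-injected gave 2 with the upper 40% tested. For embryos minus donor cells 7 to 8 of the 13 were called in the unblocked fits that lacked 1 array, the lowest without anti-DJ1 replicate 2, and 10 (10904 of all) with the non-injected array left out, a setting chosen after seeing the data. EIF2AK2 and IFNAR1 changed direction against donor cells at a common 75th percentile, to 0.15 and 0.18. Changes of sign of any size were 12 of 503 member values under the other alternatives, 21 of 208 with 1 array left out and the trial kept, which leaves no test, and 37 of 208 in the unblocked fits. The cause of these shifts was not tested. Probe sets close to the Tag controls have the least signal over background, among them B2M-f in embryos and B2M-i in donor cells.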

Other observations

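The array also holds 5 probe sets annotated to a pig class I heavy chain symbol (SLA-1, SLA-2 or SLA-3) together with another of these or with LOC100513601, which were not used as single genes. Their signals ran from 2.18 to 131 in embryos and from 2.47 to 742 in donor cells. Donor cells exceeded every embryo array in 3 of the 5, and 15 of the 25 embryo values lay at or under the Tag controls. In 1 of the others the embryo arrays, at 71.6 to 131, overlapped the donor cells at 71.8, so these probe sets differ among themselves as those of B2M do.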
